A study of Mus musculus with 4 samples.

Results

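The transcription factors of lateral plate and intermediate mesoderm were followed over the 4 arrays of the series. The set holds 10 genes, listed by name and chosen with earlier results of these data known: Osr1, Wt1, Foxf1, Foxf2, Hand1, Hand2, Prrx1, Prrx2, Foxc1 and Foxc2. Each has a probe set annotated to that gene alone, Foxf1 has a second one, and the resulting 11 probe sets stand among 35556 on the array. After reduction to 1 probe set per gene, the 10 factors stand among 19938 genes.

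RNA came from mouse ES cells of the D3 line, either undifferentiated or grown into embryoid bodies (EBs), cell aggregates that start to differentiate towards the germ layers once conditions for self-renewal are withdrawn. EBs spent 2 days in hanging drops and 5 days in suspension and were taken at day 7, after treatment with 50 nM bexarotene, after treatment with retinoic acid (RA), or untreated. RA, the natural ligand of the retinoic acid receptors, was given at 5 µM according to the sample labels and at a far lower, nanomolar dose according to the article, so the ligands were not compared at matched doses. Bexarotene is a rexinoid, a synthetic agonist of the retinoid X receptors that partner those receptors on DNA. Each condition, bexarotene EBs, RA EBs, untreated EBs and ES cells, had 1 array, and the labels do not say how many cultures were pooled. There is therefore no replicate error and no test. A difference below is the gap between 2 arrays in log2 signal, normalized by the authors, and "past 1.5-fold" means a gap of at least 0.585 on that scale, the fold used in the article.

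Mesoderm that leaves the primitive streak is patterned from the midline outwards into paraxial, intermediate and lateral plate mesoderm. Paraxial mesoderm forms the somites and skeletal muscle, intermediate mesoderm forms kidney and gonad, and lateral plate mesoderm forms the heart, the gut wall, the body wall and the limb buds. BMP signalling favours lateral over medial fates, Hedgehog signalling from endoderm maintains Foxf1 in the splanchnic layer, and retinoic acid made in the somites acts on the neighbouring mesoderm. The factors described here mark the lateral and intermediate territories, and Foxc1 and Foxc2 favour paraxial over intermediate identity.

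The median log2 signal of the arrays lay between 6.66 and 6.69. Normalization by the authors brings arrays to a like scale, so this does not show how alike the samples were. Pluripotency markers followed the labels of untreated EBs and ES cells: 7 of 8 were lower in the EBs by more than 1.5-fold and 0 were higher. Taken over all probe sets that carry 1 symbol, the robust SD of the difference was 0.12 between bexarotene and RA EBs, 0.17 between either ligand and untreated EBs, and 0.32 between untreated EBs and ES cells. These spreads are taken over genes between 2 arrays and are not the spread between cultures. In such bulk samples, fewer cells of a type and less RNA per cell cannot be told apart.

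Most of the factors had a higher signal in EBs than in ES cells. In untreated EBs 8 of 10 were past 1.5-fold higher than in ES cells and 1 was lower, where 11.0% of all genes were past that fold higher and 8.52% lower. The median log2 difference over the 10 factors was 1.02, against -0.04 over all genes. In bexarotene EBs 7 of 10 were past 1.5-fold higher than in ES cells and 0 lower, where 10.2% of all genes were higher and 9.69% lower. In RA EBs 5 of 10 were higher and 0 lower, where 10.5% of all genes were higher and 9.19% lower, and with the second Foxf1 probe set, or the mean of both, the count was 6 of 10. Past 2-fold, 6 of 10 were higher than in ES cells in bexarotene EBs, 3 in RA EBs and 6 in untreated EBs, where 8.84%, 8.74% and 9.3% of all genes were past that fold in either direction. The 3 comparisons use the same ES cell array and are not independent of each other.

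The factors differed from one another in the treated EBs. With bexarotene, 2 of 10 factors were past 1.5-fold higher than in untreated EBs, Osr1 and Prrx2, and 2 were lower, Prrx1 and Foxc1, where 1.48% of all genes were higher and 2.15% lower. With RA, 0 of 10 were past 1.5-fold higher and 5 were lower, Foxf1, Prrx1, Foxc2, Foxc1 and Hand1, where 2.07% of all genes were higher and 2.22% lower. The median log2 difference of the factors from untreated EBs was -0.02 with bexarotene and -0.55 with RA, and over all genes it was -0.01 and 0.00. At a threshold of 2-fold, Osr1 alone was left with bexarotene, where 1.31% of all genes were past it in either direction, and 4 factors with RA, where 1.44% were. Both comparisons share the 1 untreated array, so a high or low value on that array enters both.

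**Figure D1:**
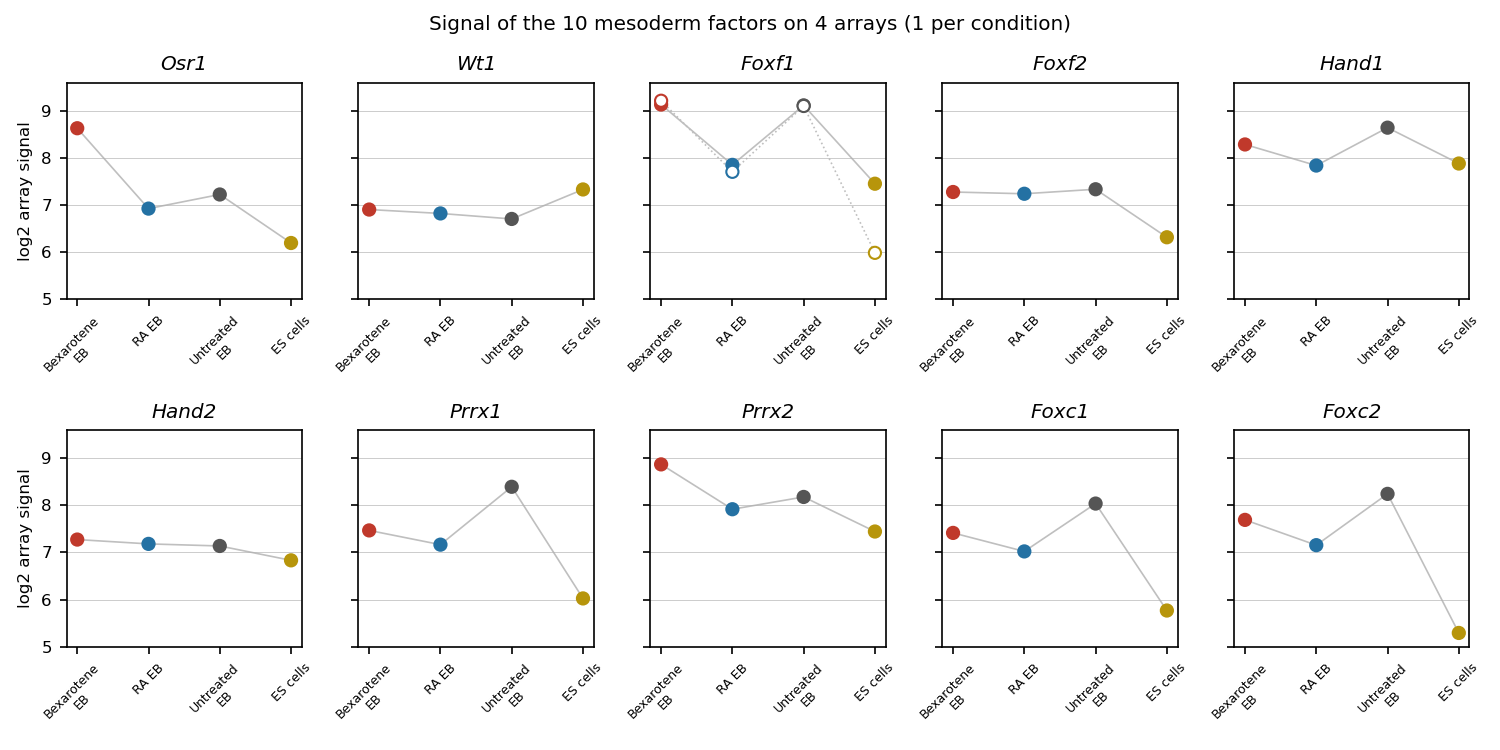
Log2 array signal of the 10 mesoderm factors in bexarotene EBs, RA EBs, untreated EBs and ES cells, with 1 point per array and no replicates. Open points with a dotted line show the second Foxf1 probe set. Osr1 stands highest with bexarotene at 8.63, while Foxc1 and Foxc2 stand highest in untreated EBs at 8.04 and 8.24.

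The direct comparison of the ligands does not use the untreated array. All 10 factors had a higher signal in bexarotene than in RA EBs, a sign that 45.7% of all genes shared, with a median log2 difference of 0.42 over the factors and -0.01 over all genes. Past 1.5-fold, 3 of 10 factors were higher with bexarotene and 0 were lower, where 0.196% of all genes were higher and 0.296% lower. The 3 factors were Osr1, Foxf1 and Prrx2, which ranked 1, 3 and 8 among 19938 genes ordered by this difference. Osr1 and Foxf1 were also past 2-fold, as were 0.0301% of all genes. At the other end of the set, Foxf2, Wt1 and Hand2 differed between the ligands by 0.04, 0.08 and 0.09, less than the robust SD over genes. The 10 values come from the same pair of arrays and are not independent observations. The factors were chosen with earlier results of these data known, and the article had reported Osr1 as higher with bexarotene than with RA. The shares of all genes therefore describe the set and do not test it.

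**Figure D2:**
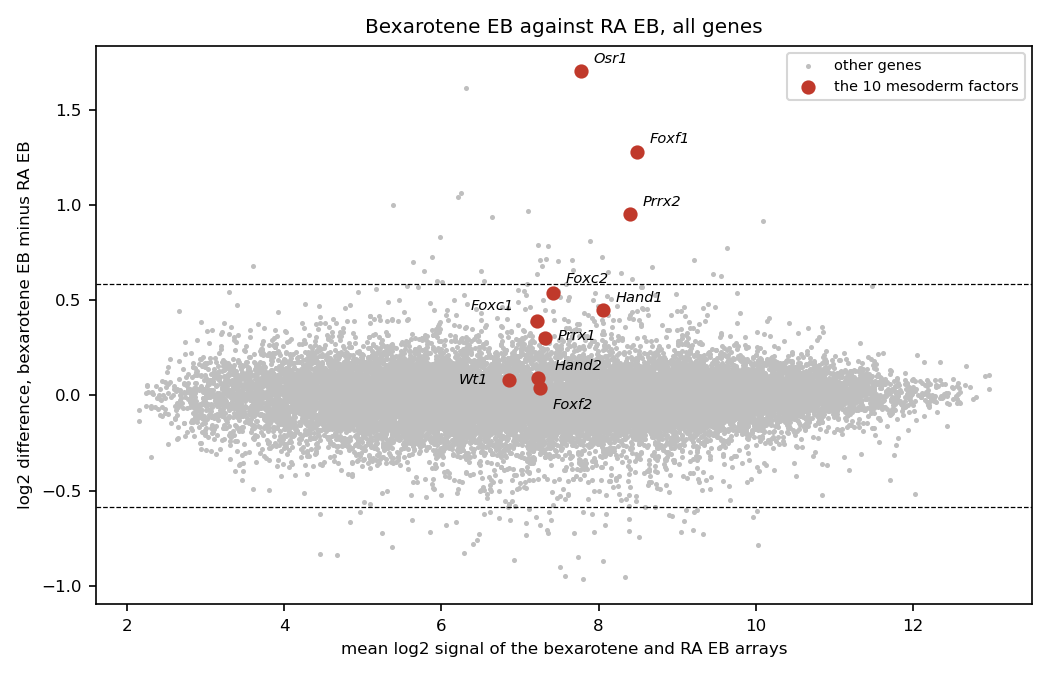
Log2 difference of each gene between bexarotene and RA EBs on the y axis, against its mean log2 signal on the 2 arrays on the x axis, with 1 point per gene and dashed lines at 1.5-fold. The 10 mesoderm factors, in red, all lie above 0, with Osr1 at 1.71, Foxf1 at 1.28 and Prrx2 at 0.95.

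Osr1 encodes a zinc finger protein that is among the earliest markers of intermediate mesoderm and is needed for kidney and heart formation. Its log2 signal was 8.63 in bexarotene EBs, 6.92 in RA EBs, 7.22 in untreated EBs and 6.19 in ES cells. The bexarotene array stood above the other EB arrays, and ES cells had the lowest signal. Osr1 was 2.65-fold higher with bexarotene than in untreated EBs and 3.26-fold higher than with RA, the largest difference between the ligands of any gene. With RA the difference from untreated EBs was -0.30, short of the threshold. Compared with ES cells, Osr1 was 5.41-fold higher in bexarotene EBs, 1.66-fold higher in RA EBs and 2.04-fold higher in untreated EBs.

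Wt1, a zinc finger gene of the nephrogenic mesenchyme, gonad and mesothelium, did not follow Osr1. Its log2 signal was 6.90 with bexarotene, 6.82 with RA, 6.70 in untreated EBs and 7.33 in ES cells. The 3 EB arrays differed by no more than 0.20, and all of them lay below the ES cell array. It alone of the factors was lower in untreated EBs than in the undifferentiated cells, by 1.54-fold, close to the threshold, and after loess normalization of the arrays it fell short of it. Of 10 genes of mesothelium and epicardium, where Wt1 also acts, 0 were past 1.5-fold between the ligands. Over all genes 0.196% were past it higher with bexarotene and 0.296% lower. Upk3b and Msln, markers of mesothelium, had log2 signals of 6.20 and 5.97 with bexarotene and 6.21 and 6.02 with RA. They stood at 6.04 and 5.88 in untreated EBs and 6.78 and 6.64 in ES cells. Both of those markers, like Wt1, had their highest signal in ES cells. The list as a whole did not follow them. In untreated EBs 4 of 10 were past 1.5-fold higher than in ES cells and 2 lower, Upk3b and Msln. The list's median log2 difference was 0.32, and 11.0% of all genes were higher and 8.52% lower.

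Other genes of intermediate mesoderm and early kidney went in both directions. Of 18 measured, 3 were past 1.5-fold higher with bexarotene than in untreated EBs and 5 lower, and with RA 3 were higher and 4 lower, with median log2 differences of -0.06 and -0.15. The shares of all genes were 1.48% higher and 2.15% lower with bexarotene, and 2.07% and 2.22% with RA. Between the ligands 1 was higher with bexarotene, Ret, and 2 were lower, Lhx1 and Gfra1, where 0.196% of all genes were higher and 0.296% lower. Ret, the receptor tyrosine kinase of the nephric duct and of enteric neural crest, had a log2 signal of 8.30 with bexarotene, 7.49 with RA, 6.79 in untreated EBs and 6.86 in ES cells. Lhx1, a LIM homeobox gene that is needed in the nephric duct and is also expressed in spinal interneurons, stood at 7.06 with bexarotene, 7.96 with RA, 8.07 in untreated EBs and 6.45 in ES cells. Osr1 and Lhx1, which share a place in intermediate mesoderm, thus differed between the ligands in opposite directions.

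Foxf1 encodes a forkhead factor of splanchnic lateral plate mesoderm and of the gut and lung mesenchyme it forms. Its log2 signal was 9.13 in bexarotene EBs, 7.85 in RA EBs, 9.11 in untreated EBs and 7.45 in ES cells. Bexarotene and untreated EBs were nearly equal, with a difference of 0.02, and by this probe set the RA array was 0.40 above that of ES cells, short of the threshold. Against untreated EBs, Foxf1 was 2.40-fold lower with RA. Against RA, it was 2.43-fold higher with bexarotene. The second probe set gave 9.21, 7.70, 9.10 and 5.98 on these arrays in the order bexarotene, RA, untreated and ES cells. It placed the 3 EB arrays as the first did, at 2.63-fold lower with RA than in untreated EBs, but its ES cell value was lower, so that untreated EBs were 8.68-fold above ES cells by this probe set and 3.17-fold by the first. RA EBs were 3.29-fold above ES cells by the second probe set, past the threshold, and 1.32-fold by the first. The Foxf1 difference from ES cells therefore depends on the probe set, in RA EBs also for the call.

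Foxf2, the close paralog of Foxf1 in gut and craniofacial mesenchyme, was nearly level among the EB arrays. Its log2 signal was 7.28 with bexarotene, 7.24 with RA, 7.33 in untreated EBs and 6.31 in ES cells. Untreated EBs were 2.03-fold above ES cells, and its difference from untreated EBs was -0.06 with bexarotene and -0.10 with RA. The forkhead paralogs thus differed in RA EBs, where Foxf1 was past 1.5-fold lower than in untreated EBs and Foxf2 was not.

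Hand1, a bHLH gene of lateral plate and extraembryonic mesoderm, of the heart and of trophoblast giant cells, had a log2 signal of 8.28 in bexarotene EBs, 7.84 in RA EBs, 8.64 in untreated EBs and 7.88 in ES cells. It was 1.75-fold lower with RA than in untreated EBs, which put the RA array level with ES cells, while bexarotene EBs lay between, with a difference of -0.36 from untreated EBs. Of 9 trophoblast genes, which share expression with Hand1 in that lineage, RA EBs had 3 past 1.5-fold lower than untreated EBs and bexarotene EBs 0. Among all genes 2.22% were past it lower with RA and 2.15% with bexarotene. The list did not fall as a whole. Its median log2 difference from untreated EBs was 0.01 with RA and -0.02 with bexarotene, and its highest, Tfap2c, was 0.43 and 0.48. The mean log2 signal was 7.89, 7.83, 7.93 and 7.86 in bexarotene, RA and untreated EBs and ES cells. The 3 past the threshold with RA were Krt18, Cdx2 and Krt8. Their log2 differences from untreated EBs were -0.56, -0.58 and -0.52 with bexarotene, just short of the threshold, and -0.72, -0.64 and -0.60 with RA. Between the ligands they differed by at most 0.16. Their part in the Hand1 value was not tested. Hand2, its paralog in the heart, limb bud and branchial arches, differed little among all 4 arrays. Its log2 signal was 7.27 with bexarotene, 7.18 with RA, 7.14 in untreated EBs and 6.83 in ES cells, and it was the only factor short of 1.5-fold in all comparisons.

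Among 22 other genes of lateral plate and splanchnic mesoderm, 1 was past 1.5-fold higher and 3 lower with bexarotene than in untreated EBs, and with RA 1 was higher and 6 lower. The shares of all genes were 1.48% higher and 2.15% lower with bexarotene, and 2.07% and 2.22% with RA. Between the ligands 2 were higher with bexarotene, Bmp4 and Kdr, and 1 was lower, Mab21l2, where 0.196% of all genes were higher and 0.296% lower. Bmp4, which encodes a secreted inducer of lateral and extraembryonic mesoderm, had a log2 signal of 10.5 with bexarotene, 9.63 with RA, 9.97 in untreated EBs and 11.3 in ES cells. It shared with Osr1 and Prrx2 the order of the EB arrays, bexarotene above untreated above RA, but not the low ES cell value. Kdr, a receptor for vascular endothelial growth factor that marks early cardiovascular mesoderm, stood at 6.83 with bexarotene, 6.17 with RA, 7.82 in untreated EBs and 6.13 in ES cells. Its order of arrays was that of Foxc1, Foxc2 and Prrx1.

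Prrx1 and Prrx2 encode paired-related homeodomain proteins of limb bud and craniofacial mesenchyme, and they went opposite ways with bexarotene. Prrx1 had a log2 signal of 7.47 in bexarotene EBs, 7.17 in RA EBs, 8.39 in untreated EBs and 6.02 in ES cells. Prrx2 had a log2 signal of 8.87 in bexarotene EBs, 7.92 in RA EBs, 8.18 in untreated EBs and 7.45 in ES cells. Prrx1 was highest in untreated EBs and Prrx2 with bexarotene. With bexarotene, Prrx1 was 1.90-fold lower and Prrx2 1.61-fold higher than in untreated EBs. With RA, Prrx1 was 2.34-fold lower and Prrx2 had a difference of -0.26, short of the threshold. Both were higher with bexarotene than with RA, Prrx2 by 1.93-fold and Prrx1 by 1.23-fold, and only the Prrx2 value was past the threshold.

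Of 24 other genes of limb bud and mesenchyme, 1 was past 1.5-fold higher and 3 lower with bexarotene than in untreated EBs, and with RA 1 was higher and 6 lower. The shares of all genes were 1.48% higher and 2.15% lower with bexarotene, and 2.07% and 2.22% with RA. Between the ligands 3 were higher with bexarotene and 0 lower, with a median of 0.16, where 0.196% of all genes were higher and 0.296% lower. The 3 were Hapln1, a link protein of hyaluronan matrix, Snai2, a zinc finger gene of epithelial-to-mesenchymal transition, and Dlx5, a homeobox gene of limb ectoderm, branchial arches and bone, at log2 differences of 1.61, 0.71 and 0.68. Lum, a small proteoglycan of collagen matrix and the list's lowest difference from untreated EBs with either ligand, stood at 4.37 with bexarotene, 4.31 with RA, 6.22 in untreated EBs and 4.07 in ES cells. Its bexarotene, RA and ES cell values lay below the lower quartiles of those arrays, 5.22, 5.20 and 5.19. A gap between the ligands could therefore not be judged for Lum.

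Foxc1 and Foxc2, forkhead genes of presomitic and somitic mesoderm, of kidney and of the vasculature, were the only one of the 4 paralog pairs whose members ordered the 4 arrays alike. Foxc1 had a log2 signal of 7.42 with bexarotene, 7.02 with RA, 8.04 in untreated EBs and 5.77 in ES cells. Foxc2 had a log2 signal of 7.69 with bexarotene, 7.16 with RA, 8.24 in untreated EBs and 5.29 in ES cells. Both were highest in untreated EBs, then with bexarotene, then with RA, and lowest in ES cells. Untreated EBs exceeded ES cells 4.82-fold for Foxc1 and 7.74-fold for Foxc2, and the ES cell value of Foxc2 lay near the lower quartile of that array, 5.19. Against untreated EBs, RA EBs were 2.02-fold lower for Foxc1 and 2.13-fold lower for Foxc2. In bexarotene EBs Foxc1 was 1.54-fold lower, just past the threshold and short of it after quantile normalization, and Foxc2, at a difference of -0.55, was just short of it. Bexarotene EBs lay above RA EBs by 0.39 for Foxc1 and 0.54 for Foxc2, both short of the threshold.

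**Figure D3:**
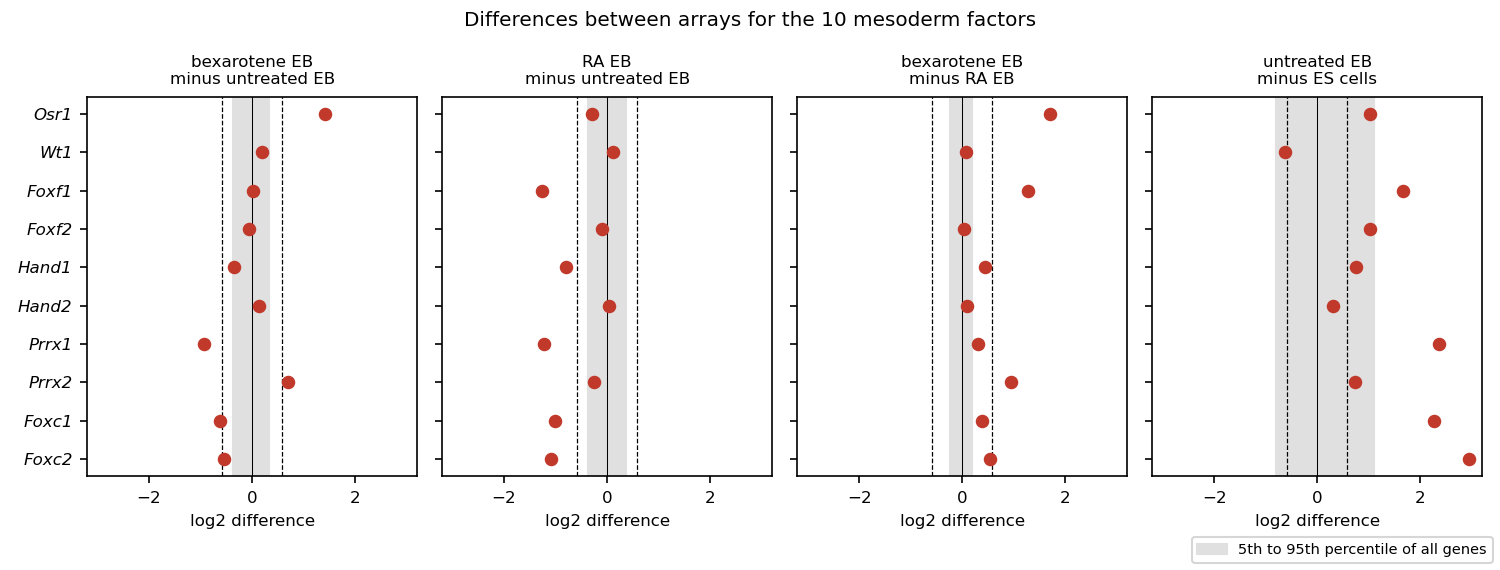
Log2 differences of the 10 mesoderm factors in 4 comparisons of arrays, with 1 point per gene, dashed lines at 1.5-fold and a grey band from the 5th to the 95th percentile of all genes. Foxf1, Prrx1, Foxc1 and Foxc2 lie left of the lower dashed line with RA, and all 10 points lie right of 0 between bexarotene and RA.

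The Fox members are neighbours in the genome in a pair of small clusters, Foxf1, Foxc2 and Foxl1 on mouse chromosome 8 and Foxq1, Foxf2 and Foxc1 on chromosome 13, in the gene order of the RefSeq annotation. Not all neighbours shared a pattern. On chromosome 8 the log2 difference of RA from untreated EBs was -1.09 for Foxc2 and -1.26 for Foxf1, whereas Mthfsd, which lies between them, had -0.08 and Foxl1, a forkhead gene of gut mesenchyme, 0.02. On chromosome 13 Foxc1 had -1.02, Foxf2 -0.10 and Foxq1, a forkhead gene of epithelia, 0.63. With bexarotene the only measured gene of either cluster past 1.5-fold was Foxc1, at -0.62, with Foxc2 just short of it at -0.55. After quantile normalization Foxc1 was short of it too, at -0.581. Of 40 other forkhead genes, 1 was past 1.5-fold higher and 7 lower with bexarotene than in untreated EBs, and 1 higher and 6 lower with RA. The shares of all genes were 1.48% higher and 2.15% lower with bexarotene, and 2.07% and 2.22% with RA. Between the ligands 0 of the 40 were past it, close to the share of all genes, 0.196% higher and 0.296% lower.

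**Figure D4:**
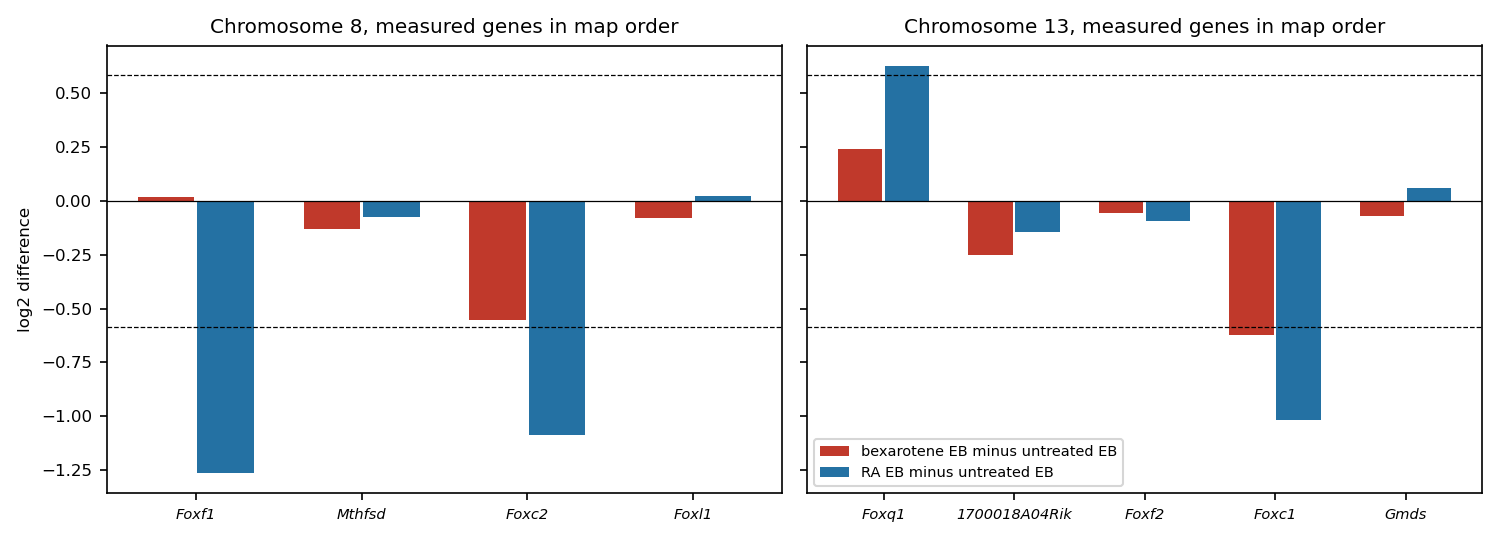
Log2 difference from untreated EBs of bexarotene EBs, red, and RA EBs, blue, for the measured genes of both forkhead clusters in map order, with 1 value per bar and dashed lines at 1.5-fold. Foxf1 is low with RA only (-1.26 against 0.02 with bexarotene), and Foxf2 lies near 0 with both.

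Upstream sequence was at hand for 5 of the 10 factors, Foxc1, Foxf2, Hand2, Prrx1 and Prrx2. The 250 bases before the RefSeq start of the chromosome 13 neighbours are shown because Foxc1 was past 1.5-fold lower with both ligands and Foxf2 was not. With bexarotene Foxc1 was only just past it. They lie on the plus strand of GRCm38.p6 at chr13:31806396-31806645 and chr13:31625566-31625815. Capitals mark the box CCAAT, the GC box (GGGCGG) and nuclear receptor half-sites, in their common form AGGTCA or in the variant form AGTTCA. Each was searched on both strands, and ATTGG in the Foxc1 window is the first of these read on the other strand.
Foxc1: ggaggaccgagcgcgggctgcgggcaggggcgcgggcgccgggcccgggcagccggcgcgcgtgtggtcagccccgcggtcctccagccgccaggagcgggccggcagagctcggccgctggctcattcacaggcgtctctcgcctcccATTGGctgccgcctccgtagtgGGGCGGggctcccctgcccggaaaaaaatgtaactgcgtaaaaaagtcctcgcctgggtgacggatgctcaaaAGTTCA
Foxf2: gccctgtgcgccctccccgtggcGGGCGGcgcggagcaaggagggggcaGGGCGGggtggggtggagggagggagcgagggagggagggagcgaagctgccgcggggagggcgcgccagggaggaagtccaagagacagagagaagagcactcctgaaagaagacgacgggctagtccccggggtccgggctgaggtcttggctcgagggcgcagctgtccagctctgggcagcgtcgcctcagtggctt
Both windows were rich in G and C, at 70.8% and 71.6%, against a median of 52.4% over 32851 RefSeq promoter windows of this length. Foxc1 held 29 CG dinucleotides and Foxf2 21, against a median of 6. Foxc1 had 1 CCAAT, found in 33.9% of all windows, and Foxf2 had none. GGGCGG, found in 32.7% of all windows, occurred in Foxc1 in 1 place and in Foxf2 in 2. AGTTCA, found in 11.8% of all windows, occurred in Foxc1 alone of the 5 factors, as the last 6 bases before the start, and AGGTCA, found in 14.0%, in none of the 5. These are matches of letters and not measured binding sites, and sites farther away lie outside the window.

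Hedgehog and BMP genes, which act on lateral mesoderm, were set beside the factors. Against untreated EBs, 1.48% of all genes were past 1.5-fold higher and 2.15% lower with bexarotene, and 2.07% and 2.22% with RA. Of 12 Hedgehog pathway genes, 1 was past 1.5-fold higher and 3 lower with bexarotene than in untreated EBs, and 1 higher and 2 lower with RA. Shh, the ligand made by notochord, floor plate and gut endoderm, had a log2 signal of 7.33 with bexarotene, 7.55 with RA, 9.52 in untreated EBs and 7.11 in ES cells, and Gli1, a direct target of the pathway, stood at 8.60, 8.62, 9.23 and 8.71 on these arrays. Shh and Gli1 were past 1.5-fold lower with each ligand. Between the ligands 0 of the 12 were past it, close to the share of all genes, 0.196% higher and 0.296% lower. The part of Hedgehog signalling in the Foxf1 value was not tested. Of 22 BMP pathway genes, 3 were higher and 5 lower with bexarotene than in untreated EBs, and 2 higher and 6 lower with RA, and between the ligands Bmp4 alone was past 1.5-fold. Bmp5, a ligand expressed in lateral plate derivatives, was just short of the threshold between the ligands, at 0.583.

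**Figure D5:**
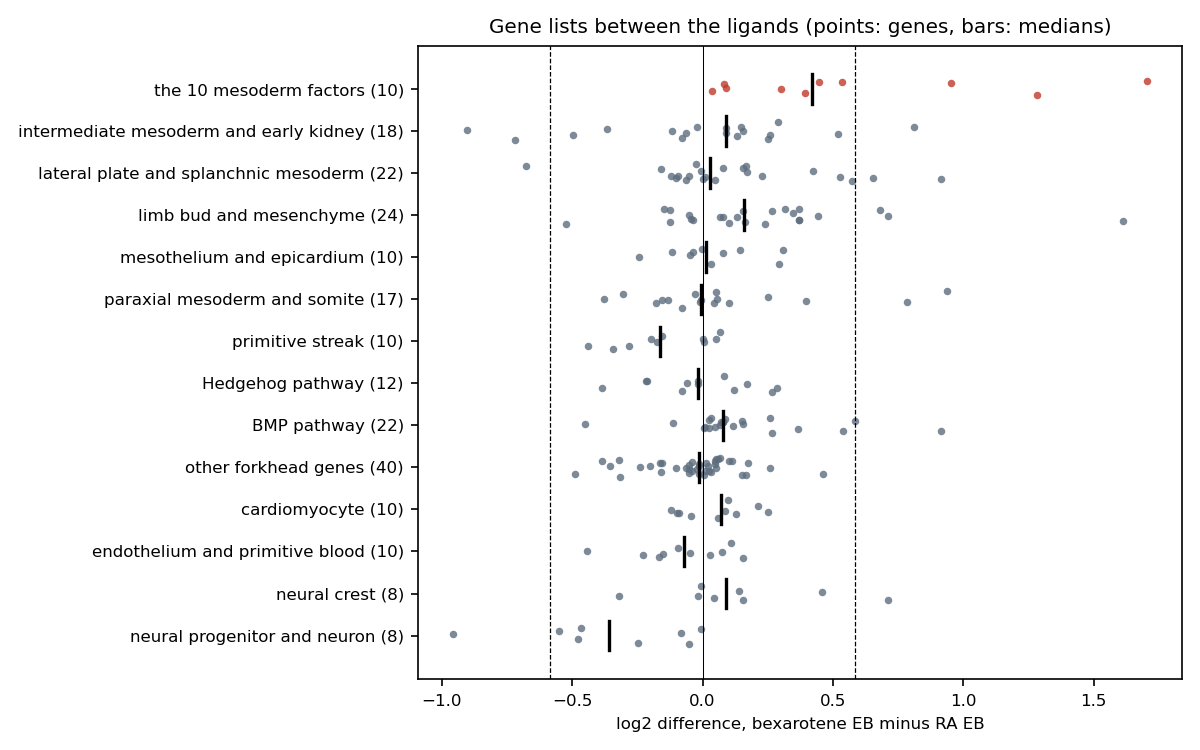
Log2 difference between bexarotene and RA EBs for the 10 mesoderm factors, in red, and for 13 other gene lists, with 1 point per gene, black bars at list medians, dashed lines at 1.5-fold and the number of measured genes in parentheses. The median of the 10 factors is 0.42, that of limb bud and mesenchyme genes 0.16 and that of neural genes -0.36.

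Markers of other cell types moved beside the factors. Against untreated EBs, 1.48% of all genes were past 1.5-fold higher and 2.15% lower with bexarotene, and 2.07% and 2.22% with RA. Each ligand had 6 of 8 neural progenitor and neuron genes past 1.5-fold above untreated EBs, and between the ligands 0 were higher with bexarotene and 1 lower, Dcx. Their mean log2 signal was 8.58 with bexarotene, 8.94 with RA, 7.51 in untreated EBs and 7.08 in ES cells, so that it was highest on the array where 8 of the 10 factors were lowest of the EBs. RA was the lowest EB array for 29.1% of all genes. Of 8 pluripotency genes 5 were past 1.5-fold higher with RA than in untreated EBs and 0 with bexarotene. Cardiomyocyte genes were lower in 4 of 10 cases with either ligand, and those of endothelium and primitive blood in 3 of 10 cases with bexarotene and 4 with RA. Between the ligands 0 of either list were past 1.5-fold, where 0.196% of all genes were higher and 0.296% lower. The list for paraxial mesoderm and somite, 17 measured genes, had 3 higher and 0 lower with bexarotene than in untreated EBs, and 2 higher and 1 lower with RA. The part of these other cells in the values of the factors was not tested.

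Profiles most like those of the leading factors were found by the distance between log2 profiles over the 4 arrays, each centred on its own mean, among named genes with at least median signal. For Osr1 the nearest gene was Prrx2, itself a member, at a distance of 0.75, followed by Agtr1a, an angiotensin receptor gene, at 0.84. For Prrx2 the nearest were Agtr1a at 0.28 and Dlx5 at 0.31. For Foxf1 they were Pax9, a paired box gene of sclerotome and pharyngeal endoderm, at 0.42 and Thsd4 at 0.51. Foxc1 and Prrx1 had the same nearest gene, Pgf, which encodes placental growth factor, at 0.13 and 0.11. For Foxc2 they were Nrp1, a receptor of semaphorins and vascular growth factors, at 0.19 and Wnt1 at 0.19. The nearest gene of Osr1 was farther from it than the nearest genes of Prrx2, Foxf1, Foxc1, Foxc2 and Prrx1 were from them. These distances were not scaled by the size of a gene's differences. Osr1 had the largest difference between the ligands of any gene, so its larger distance is not a separate result. With 4 arrays such distances describe these arrays only.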

How the data were processed

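The authors deposited 1 table of log2 signal for 4 Affymetrix arrays, after background correction, normalization and summarization of probes into probe sets. The article names RMA for this, and the submitters' processing notes name GCRMA in Affymetrix Expression Console. They were used as deposited. The scanner files were not processed again, and the genome build behind the array annotation is not given in the sources used here. Promoter windows came from RefSeq on GRCm38.p6. RNA came from 1 array per condition. The platform annotation gives 1 gene symbol for 21789 of 35556 probe sets, and a gene stands by its probe set of highest mean. All 10 symbols match a current RefSeq symbol. Differences were taken between arrays and counted past 1.5-fold, the share of all 19938 genes past it being the background. No test was possible. The number of arrays limits the precision. The factors and the 16 gene lists were chosen with earlier results of these data known. Named genes were the 10 factors, at most 4 genes of a list by size of difference, and the nearest 3 profiles per factor. Neighbours of the Fox members in their clusters were named too. Upk3b, Msln and Gli1 were singled out after their values were seen. Listed genes without a probe set of their own were not analysed here. The rule for calls was checked on simulated log2 values. Alternatives were a 2-fold threshold, quantile normalization, loess (span 0.3), flooring each array at its 25th percentile, the mean of a gene's probe sets and, added later, the other Foxf1 probe set. Python 3.11.15, pandas 2.3.3 and statsmodels 0.14.6 were used.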

Additional observations from a re-analysis of the deposited data

How the results depend on the processing

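Of 300 member differences recomputed under 5 alternatives over 6 comparisons, 296 stayed on their side of 1.5-fold, 2 fell below it, 2 passed it and 0 reversed. The mean of probe sets and the other Foxf1 probe set could change Foxf1 alone, and no factor lay below the floor. Many of the 300 values were therefore the main values again, and the total does not measure robustness. The alternatives for bexarotene and RA EBs against ES cells, and the other Foxf1 probe set, were chosen after seeing the data. Foxc1 with bexarotene against untreated EBs was at -0.581 after quantile normalization, and Wt1 in untreated EBs against ES cells at -0.581 after loess. At 2-fold, 1 factor, Osr1, in place of 4 was past the threshold with bexarotene against untreated EBs, 4 with RA, 2 between the ligands, and, against ES cells, 6 in bexarotene EBs, 3 in place of 5 in RA EBs and 6 in untreated EBs. Over all genes the same step reduced the count in either direction to 261 at 2-fold, against 724 at 1.5-fold, with bexarotene, to 287 against 856 with RA, to 6 against 98 between the ligands, and, against ES cells, to 1763 against 3957 in bexarotene EBs, 1743 against 3921 in RA EBs and 1855 against 3893 in untreated EBs. The floor changed no value. Foxf1 in RA EBs against ES cells was 0.40 and passed the threshold at 1.72 by its other probe set and at 1.06 by the mean of both, and no other call depended on that choice. No paired analysis was possible because each condition has 1 array, and for the same reason no sample could be left out. Small differences in Foxf2, Hand2 and Wt1 would not be detectable with 1 array per condition.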
